A study of Caenorhabditis elegans with 2 samples.

Results

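The X chromosome peaks of HINF-1 are the binding regions on chromosome X in a ranked list of HINF-1 chromatin immunoprecipitation (ChIP-seq) peaks. All of them were taken, whatever their strength, and they numbered 15992 of the 89784 ranked peaks. The other 73792 peaks, on the 5 autosomes, served for comparison. The gene hinf-1 (F39B2.1) encodes a zinc finger protein related to HINFP, which in human cells is known to activate histone H4 genes. The animals were whole Caenorhabditis elegans young adults of strain RW12232, 65 hours old, synchronised by starvation as L1 larvae. They carried a CRISPR insertion, allele st12232, that places TY1, eGFP and 3xFLAG tags on HINF-1, and anti-GFP antibody was used for the precipitation. There was 1 group with 2 biological replicates and no second condition, and the control experiment that the labels name was not used here. Since the material was whole animals, binding in few cells and weak binding in many cells cannot be told apart.

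Hermaphrodite worms carry a pair of X chromosomes and males a single one, and a dosage compensation complex lowers X transcription in hermaphrodite body cells. In the germ line, which makes up much of a young adult, X is known to be largely silent. The worm X also holds a large share of the genome's tRNA genes, which RNA polymerase III transcribes from promoters inside the gene. Linker histones of the H1 family, which bind where DNA enters and leaves the nucleosome, are encoded on X by his-24 and hil-3 and on the autosomes by the other members.

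The X peaks that stood highest among the deposited thresholded lists shared a stretch of sequence, and their whole peak sequences are shown for that reason. They are the peak at his-24 (X:14489929-14490173), the peak at hil-3 (X:8159020-8159194) and a peak whose nearest 5' end is that of the tRNA gene F22F1.t7 (X:8157255-8157360). All are on the plus strand of WBcel235, the assembly named ce11 in the files. Capitals mark the shared stretch and, where present, the word TATATAA.
his-24: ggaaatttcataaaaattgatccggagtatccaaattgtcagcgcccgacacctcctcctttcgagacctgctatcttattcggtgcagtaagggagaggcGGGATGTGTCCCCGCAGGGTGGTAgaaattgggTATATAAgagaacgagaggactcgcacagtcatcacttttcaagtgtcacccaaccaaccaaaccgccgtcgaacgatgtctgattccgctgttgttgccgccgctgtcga
hil-3: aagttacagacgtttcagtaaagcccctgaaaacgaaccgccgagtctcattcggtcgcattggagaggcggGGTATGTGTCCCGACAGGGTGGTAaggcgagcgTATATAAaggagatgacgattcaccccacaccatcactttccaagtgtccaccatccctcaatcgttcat
F22F1.t7: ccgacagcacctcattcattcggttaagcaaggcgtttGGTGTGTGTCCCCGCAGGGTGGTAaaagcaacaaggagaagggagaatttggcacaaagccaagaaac
Aligned on the word GGGACAC, these 3 peaks gave an element of 24 letters, GGNNTGTGTCCCNNCAGGGTGGTA, with 20 fixed letters. The element was read from these peaks after their values had been seen, so its presence in them is no result.

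A second kind of X peak lay on tRNA genes, and the internal promoter word of those genes was found in many of the windows. The bases within 50 bp of the summit are shown, as examples, for 3 of the 10 conservative X peaks that held GGTTCGA, a word of the tRNA internal promoter. They are F15G9.t1 (tRNA-Ala, X:9743591-9743691), C40H5.t1 (tRNA-Leu, X:11757797-11757897) and F42G10.t1 (tRNA-Arg, X:10018378-10018478), all on the plus strand of WBcel235. Capitals mark GGTTCGA or its reverse complement.
F15G9.t1: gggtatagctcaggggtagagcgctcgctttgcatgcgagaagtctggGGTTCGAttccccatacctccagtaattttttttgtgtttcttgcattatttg
C40H5.t1: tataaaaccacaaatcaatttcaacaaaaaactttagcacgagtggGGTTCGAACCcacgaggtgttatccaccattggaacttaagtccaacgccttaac
F42G10.t1: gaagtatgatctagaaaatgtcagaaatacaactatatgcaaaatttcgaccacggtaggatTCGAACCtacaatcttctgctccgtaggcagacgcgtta

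Another kind was repeats that the thresholded lists did not hold. Stretches of such peaks are shown because they were among the strongest X signals of all. The first stretch (X:15810988-15811026) is from the peak nearest the pseudogene Y7A5A.11. The others are from peaks near elk-2 (X:110465-110532), the F-box gene fbxa-221 (X:113016-113076) and the pseudogene Y64H9A.1 (X:5056893-5056947). All are on the plus strand of WBcel235.
Y7A5A.11: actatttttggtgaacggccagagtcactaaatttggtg
elk-2: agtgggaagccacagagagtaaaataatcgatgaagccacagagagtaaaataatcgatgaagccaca
fbxa-221: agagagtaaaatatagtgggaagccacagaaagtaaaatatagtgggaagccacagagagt
Y64H9A.1: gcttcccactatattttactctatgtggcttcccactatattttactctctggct
The elk-2, fbxa-221 and Y64H9A.1 stretches carry variants of the same unit, the last one on the other strand.

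Most X peaks were weak and lay as densely as those of the autosomes. X makes up 17.7% of the length of the 6 chromosomes and held 17.8% of the ranked peaks, with 902.5 ranked peaks per Mb on X and 894 per Mb on the autosomes. The signal value of a peak is the number that the authors' peak caller gave it. Its scaling is not stated, so it was used only within 1 list. The median signal value was 18.2 on X (quartiles 13.1 and 24.1) and 18.5 on the autosomes (quartiles 13.2 and 24.6), a ratio of 0.987. In the replicates' own ranked lists the medians were 10.8 on X and 10.9 on the autosomes for replicate 1, and 14.01 on X and 14.1 on the autosomes for replicate 2. Peaks had the same median width of 230 bp and the same median GC content of 39.6% on X and on the autosomes. The bulk of the X peaks was thus close to the autosomal peaks in number, strength and base composition.

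Among the peaks that repeated between replicates, X was less represented. The irreproducible discovery rate (IDR) is low for peaks whose ranks match in separate peak sets, and every peak of a thresholded list had a global IDR of 0.01 or less, a −log10 of 2 or more, in the ranked list from which it came. Values given here are those of the pooled ranked list that holds the conservative peaks. A peak marked by overlap with a thresholded list could therefore stand below 2, as did 14 X peaks. On X, 79 of 15992 peaks passed this value (0.494%), against 617 of 73792 on the autosomes (0.836%). Over all ranked peaks 0.775% passed. The X peaks thus made up 11.4% of all passing peaks (95% Wilson interval 9.20 to 13.9), and 5.58% of those in unique sequence, where at least 0.9 of the 31-base words of the peak occur once in the genome. The replicates' own ranked lists gave 11.0% for replicate 1 (33 of 300) and 11.7% for replicate 2 (43 of 368). Per Mb there were 4.46 passing peaks on X and 7.47 on the autosomes, and the autosomes ran between 5.83 on II and 8.71 on III, all above X. The X peaks nearest to the threshold had a −log10 IDR of 2.005 just inside it and 1.993, near the tRNA-Ile gene C42D8.t1, just outside.

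The thresholded lists held still fewer X peaks. X had 54 of the 567 peaks of the conservative list (9.52%), 52 of 630 in the optimal list (8.25%), 14 of 209 in the list of replicate 1 (6.70%) and 22 of 272 in that of replicate 2 (8.09%). In unique sequence its share of the conservative list was 5.596%. By overlap of at least 1 base, these lists marked 55, 54, 13 and 23 of the X peaks of the ranked list. Over all ranked peaks, 0.642% overlapped a conservative peak and 0.855% overlapped any thresholded list. On X, 68 peaks overlapped at least 1 of the lists and 15924 overlapped none. Peaks of a chromosome are not replicates of it, so shares are given with intervals for the number of peaks, which cover counting error only, and with no p.

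The share of peaks on X depended on how strong the peaks were. In the pooled ranked list X held 11 of the 50 peaks of highest signal value (22.0%, Wilson interval 12.7 to 35.2), 7 of the next 50, and 6 of those ranked 101 to 200 (6%, 2.78 to 12.5). Its share was 10.3% at ranks 201 to 500, 13.6% at 501 to 1000, 15.1% at 1001 to 2000 and 18.1% beyond rank 20000. Both replicates' lists had the same course, with 11 X peaks among the first 50 in each, 7% and 9% at ranks 101 to 200, and 17.9% and 17.6% beyond rank 20000. Restricted to peaks of unique sequence, X held 2 of 10 peaks in the first 50 ranks. It held 0 of 51 at ranks 101 to 200 and 10 of 181 at ranks 201 to 500 (5.52%).

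**Figure D1:**
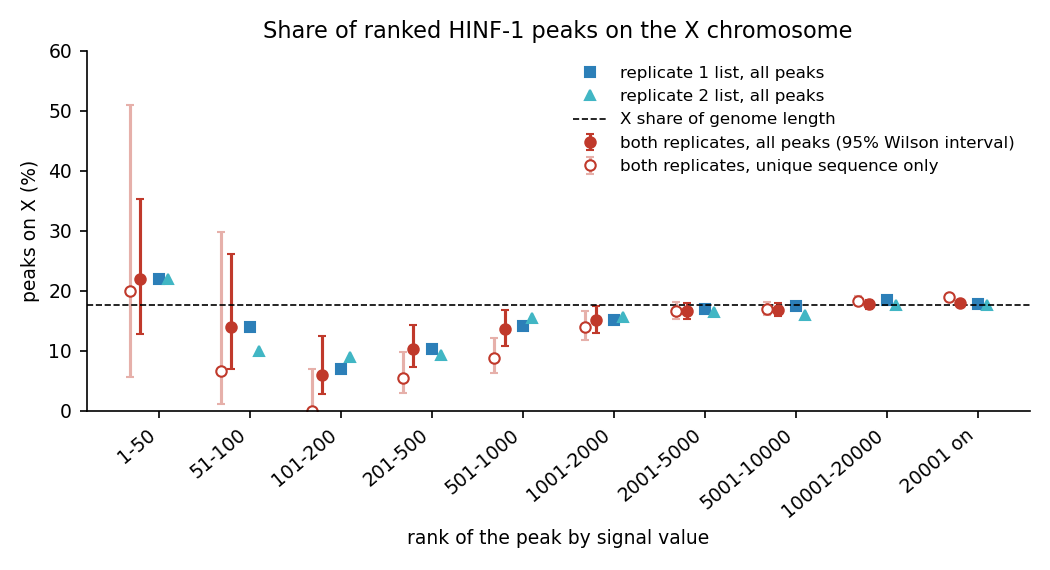
Share of ranked peaks that lie on X (vertical axis, %) by rank of signal value (horizontal axis, in bins), for the pooled list and both replicates' own lists. Filled circles are all pooled peaks with 95% Wilson intervals and open circles those of unique sequence with their intervals. The share was 22.0% in the first 50 ranks, 6% at ranks 101 to 200 and 18.1% beyond rank 20000, near the X share of genome length of 17.7%.

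The 2 strongest thresholded X peaks were at linker histone genes. The peak at his-24 had a signal value of 422.5 in replicate 1 and 490 in replicate 2, and 900.9 in the pooled list, at rank 10. Its summit was at -38 bp relative to the 5' end, the minus sign meaning upstream. The peak at hil-3 had 149.7 and 173.9 in the replicates and 324.6 in the pooled list, at rank 28, with its summit at -68 bp. The F22F1.t7 peak had 83.99, 111.9 and 194.8, at rank 56. It lay at -592 bp from that tRNA gene, and its summit was 1802 bp from that of hil-3. All 3 were in the conservative, optimal and both replicate lists and in unique sequence.

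A weaker peak lay inside his-24, near the 5' end of the noncoding gene M163.16 (X:14490467-14490696). It had signal values of 24.1 in replicate 1 and 39.41 in replicate 2, and 59.75 in the pooled list. The other X-linked histone genes had no peak past the IDR value. The best ranked peak was at 35.44 near the core histone genes his-38 and his-40, which share it, and at 27.67 at his-71, a histone H3.3 gene. Thus 2 of the 5 X-linked histone genes had a conservative peak within 500 bp of the 5' end, and both are H1 genes. On the autosomes 21 of 75 histone genes had one, against 1.08% of all annotated genes.

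The element of the 3 strongest thresholded X peaks was then looked for on both strands of all 6 chromosomes. With no mismatch it occurred 3 times, at the peaks from which it was read. With up to 2 mismatches X held no further site and the autosomes held 16. Of those 16 autosomal sites, 12 lay in a ranked peak and 10 in a conservative peak, 8 of them among the 50 peaks of highest signal value. Over all ranked peaks, a site with up to 2 mismatches was in 3 of the 15992 X peaks (0.0188%) and in 12 of the 73792 autosomal peaks (0.0163%). Further X sites needed more changes. X had 1 site with 3 mismatches, in no ranked peak, and 4 with 4 mismatches, of which 2 were in ranked peaks, at signal values of 42.22 (K02B9.6) and 24.61 (F55G7.t2).

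Of the 9 H1 genes of the genome, 5 had a site with up to 4 mismatches within 500 bp of the 5' end, and those 5 had a conservative peak there. For his-24 and hil-3 this holds by construction, which leaves hil-2, hil-4 and hil-5 on the autosomes. The other 4, all autosomal, had neither a site nor a conservative peak within 500 bp. Farther out, a site with 2 mismatches at -936 bp from hil-6, one of these 4, lay in a conservative peak with a signal value of 76.8. The centre of the site was at -53 bp from his-24 and at -66 bp from hil-3, against -51 bp at hil-2, hil-4 and hil-5 on the autosomes. The word TATATAA began 9 bp after the end of the element at his-24 and hil-3, and it was not found in the 30 bp after the element of the F22F1.t7 peak. On the autosomes it followed 2 of 16 sites, those of hil-2 and hil-4, also at 9 bp. Within 50 bp of the summit TATATAA was found at 1.53% of ranked X peaks and 1.30% of ranked autosomal peaks. A match is a description of letters and not of a bound site.

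**Figure D2:**
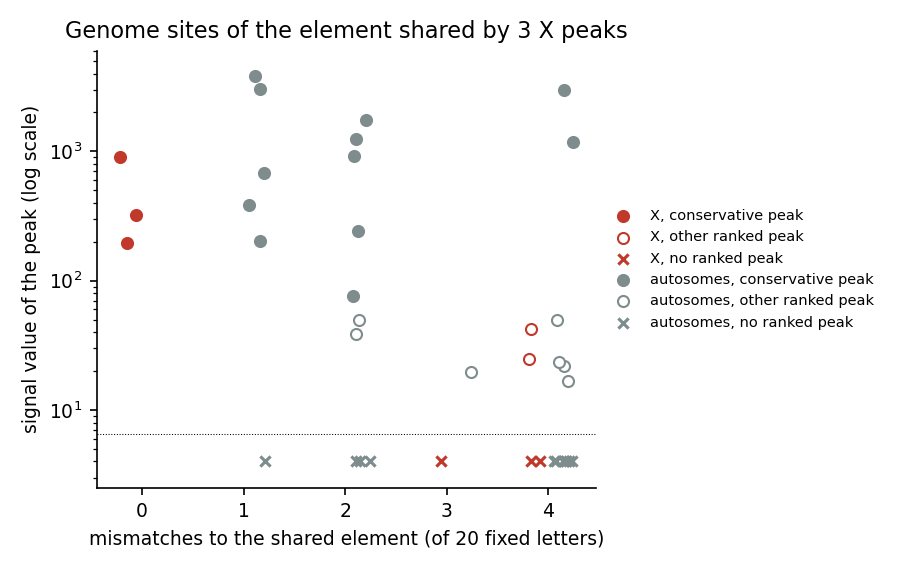
Signal value of the ranked peak (vertical axis, log scale) at each genome site of the shared element, by number of mismatches to its 20 fixed letters (horizontal axis), X sites left of autosomal sites. Filled points are conservative peaks, open points other ranked peaks and crosses sites in no ranked peak. The 3 X sites without a mismatch, from which the element was read, sit between 194.8 and 900.9.

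Other X peaks shared a different stretch, which was noticed after the values had been seen. The peaks nearest F20B6.9 (X:4209165-4209394, signal values 24.18 in replicate 1, 42.75 in replicate 2 and 69.57 pooled) and nspc-17 (X:14525780-14526009, 31.89, 36.14 and 63.88) were the only conservative X peaks with both GGGACAC and GCGCAGG near the summit. GCGCAGG is part of the motif of dosage compensation recruitment sites on X. Parts of these peaks are shown (X:4209243-4209320 and X:14525877-14525953, plus strand of WBcel235), with the longest stretches that they have in common in capitals.
F20B6.9: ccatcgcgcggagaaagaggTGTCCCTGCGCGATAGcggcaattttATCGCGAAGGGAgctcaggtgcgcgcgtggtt
nspc-17: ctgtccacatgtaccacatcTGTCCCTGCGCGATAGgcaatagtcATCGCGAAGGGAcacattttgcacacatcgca
The stretch TGTCCCTGCGCGATAG occurred in the genome only at these 2 places. ATCGCGAAGGGA occurred 5 times on X, with 4 places in ranked peaks and 3 in passing ones. For the peaks nearest F20B6.9 and nspc-17 this holds by construction, since the stretch was read from them. The other passing peak was in an intron of Y41G9A.17 (signal value 56.13). On the autosomes it occurred 8 times, with 5 places in ranked peaks and 0 in passing ones.

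Among conservative X peaks near a 5' end, transfer RNA genes were the most frequent class. Of the 54 peaks, 25 had no gene 5' end within 500 bp (46.3%, against 41.7% on the autosomes), and 20 had a summit within 500 bp of a tRNA gene 5' end (37.0%, Wilson interval 25.4 to 50.4), against 18 of 513 autosomal peaks (3.51%, 2.23 to 5.48). The X peaks thus made up 20 of the 38 conservative tRNA peaks. Among all ranked peaks the shares were 1.98% on X and 0.499% on the autosomes. X has 276 of the 612 annotated tRNA genes (45.1%). Counted per gene, 23 of the 276 X-linked tRNA genes (8.33%, 5.62 to 12.2) and 22 of the 336 autosomal ones (6.55%, 4.36 to 9.71) had a conservative summit within 500 bp, against 1.08% of all annotated genes. These intervals overlap. The thresholded list of replicate 1 had 6 X-linked and 2 autosomal tRNA genes, and that of replicate 2 had 9 X-linked and 3 autosomal ones.

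The tRNA summits lay close to the 5' ends of the genes. Relative to the 5' end of the tRNA gene, the 20 X summits lay between -57 and +69 bp, with a median of +16 bp. Of the 20, 5 lay upstream of the 5' end and 15 downstream. The autosomal median was +13 bp. Their signal values were moderate, between 51.16 and 101.7 on X. The strongest was at F15G9.t1 (tRNA-Ala), listed under the overlapping noncoding gene F15G9.8, with 50.41 in replicate 1, 54.67 in replicate 2 and 101.7 in the pooled list. It was the only tRNA peak on X that was in both replicate lists.

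The tRNA peaks that came next differed in how even the replicates were. R11.t1 (tRNA-Tyr) had a signal value of 20 in replicate 1, 70.72 in replicate 2 and 91.37 in the pooled list. W02H3.t1 (tRNA-Leu) had 27.15, 43.81 and 74.04, and T28B4.t1 (tRNA-Phe) 36.46, 36.18 and 71.12. C33G3.t2 (tRNA-Lys) had 26.21, 42.72 and 68.26. Replicate 2 was thus higher at 4 of these 5 genes. Of all marked X peaks with a value in both replicates, 74 of 90 were higher in the list of replicate 2, whose scale need not be that of replicate 1.

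Many amino acids were represented. X has tRNA genes of 20 isotypes, and 12 of them had at least 1 gene with a conservative peak. Arginine, glycine and leucine tRNA genes had 3 each, of 27, 20 and 17 on X. Serine tRNA genes had 0 of 18 and isoleucine tRNA genes 0 of 13, although K02A4.t1 (tRNA-Ser), at 64.96, was in the optimal list. Copies of a tRNA gene share sequence, and in the 20 X peaks the share of unique 31-base words ran from 0.66 to 0.9 with a median of 0.748. Reads could therefore have been placed at the wrong copy, and which copies were bound is uncertain.

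Small RNA genes other than tRNA genes added little on X. Conservative summits lay near 2 of the 33 X-linked snoRNA genes (6.06%, Wilson interval 1.68 to 19.6) and 45 of the 313 autosomal ones (14.4%, 10.9 to 18.7). The 2 were C53B7.8, at 56.34 with 28.98 in replicate 1 and 27.23 in replicate 2, and C25F6.30, at 55.61 with 26.83 and 25.39. None of the 74 X-linked miRNA genes and none of the 3 X-linked snRNA genes had a conservative summit, against 4 of 187 and 16 of 126 on the autosomes. For snRNA genes the number on X is too small to show a difference. Of the genes annotated as ncRNA, 23 of 2520 on X (0.913%, 0.609 to 1.37) had a conservative summit near the 5' end. On the autosomes 79 of 5244 had one (1.51%, 1.21 to 1.87), and these intervals overlap. Some of the X summits, such as that at F15G9.8, are also counted at a tRNA gene. Taken over all promoter-proximal conservative X peaks, the nearest 5' end was that of a noncoding RNA gene in 25 of 29 (86.2%, 69.4 to 94.5), against 108 of 299 (36.1%) on the autosomes. Without replicate 2, in the thresholded list of replicate 1, the share on X was 57.1%. The same share over all ranked promoter-proximal peaks was not measured, so it has no background here. Of the annotated genes, 2731 of 6022 on X and 17242 of 40868 on the autosomes are protein-coding. The noncoding remainder differs in kind: piRNA genes number 162 on X and 15201 on the autosomes. Genes annotated as ncRNA number 2520 on X and 5244 on the autosomes. These gene counts are therefore no like background for the 2 shares. Among the 25 were the peaks at M163.16, T04C10.8 and W06B11.7. Their summits also lay within 500 bp of the protein-coding genes his-24, epn-1 and puf-9.

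Protein-coding genes of X were rarely near a conservative peak. Of the 2731 protein-coding genes on X, 9 had a conservative summit within 500 bp of the 5' end (0.330%, Wilson interval 0.174 to 0.625), against 254 of 17242 on the autosomes (1.47%, 1.30 to 1.66), a ratio of 0.224. The thresholded lists of the replicates gave 3 X genes each (0.110%), against 106 autosomal genes (0.615%) for replicate 1 and 130 (0.754%) for replicate 2. In the full ranked list the classes did not part: 67.6% of X and 66.4% of autosomal protein-coding genes had some ranked summit near the 5' end. The difference was thus seen among the repeatable peaks.

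**Figure D3:**
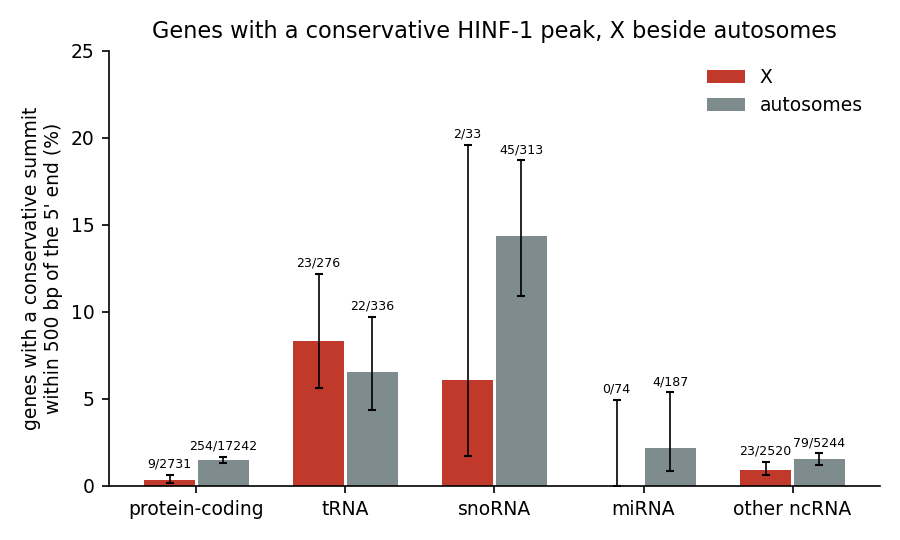
Share of annotated genes with a conservative summit within 500 bp of the 5' end (vertical axis, %), by gene class, X left of the autosomes. Bars give the share with its 95% Wilson interval, and the counts stand above. Protein-coding genes had 0.330% on X and 1.47% on the autosomes, and tRNA genes had 8.33% and 6.55%.

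The 9 X-linked protein-coding genes shared 8 peaks, and 3 of these genes, C28G1.2, sec-15 and F19C6.4, had a tRNA gene beside the same summit. Besides his-24 and hil-3, the others, chosen as all that remained, were epn-1, serp-1.1, puf-9 and hsp-3. The epsin gene epn-1, which acts in endocytosis, had 33.56 in replicate 1, 45.65 in replicate 2 and 81.38 in the pooled list, at -425 bp. That summit was at -42 bp from the noncoding gene T04C10.8. The Pumilio-family RNA-binding gene puf-9 had 30.6, 30.4 and 60.19, near the noncoding gene W06B11.7. The endoplasmic reticulum chaperone gene hsp-3 had 25.62, 31.78 and 59.73, with its summit at -31 bp. The peak of serp-1.1 had 23.85, 36.63 and 61.44. None of these 4 peaks was in the thresholded list of replicate 1.

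The gene lists had few members on X. With 0.330% of X-linked protein-coding genes near a conservative summit, and 1.08% of all genes, counts of 0 in such short lists say nothing particular about them. X has no gene of the respiratory chain and proteasome lists. Of the 2 X-linked cytosolic ribosomal protein genes, rpl-11.2 reached a signal value of 31.9 and rpl-25.1 of 9.025, and neither passed, against 15 of 76 autosomal ones with a conservative peak. Of 3 translation factor genes on X 0 had a conservative peak, against 4 of 36. Of 5 heat shock genes on X only hsp-3 had one, against 5 of 46. Of 27 collagen genes on X 0 had one, against 1 of 129.

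For groups typical of X, counts of 0 were at the background, since 0.330% of X-linked protein-coding genes and 1.08% of all genes had a conservative summit near the 5' end. These groups were the X dose and dosage compensation genes (0 of 6), the neuron genes (0 of 10), the muscle genes (0 of 5) and the yolk protein genes (0 of 5). The highest value within 500 bp of a 5' end among them was at sdc-2, which recruits the dosage compensation complex to X. It had 28.38 in replicate 1, 22.68 in replicate 2 and 51.54 in the pooled list. Its −log10 IDR was 1.754, and its summit lay at -489 bp, near the edge of the window. The X dose sensor xol-1 reached 20.26 and sex-1 18.61, close to the median of all X peaks. These members, like the histone and ribosomal protein genes without a passing peak, were picked after their values were seen. Yolk protein genes had peaks inside the gene, named after their values were seen. The peak in vit-2 had 23.3, 30.87 and 53.76 and was in the conservative list. That in vit-5 had 13.33, 44.57 and 52.94, and was in the optimal list and that of replicate 2, with a −log10 IDR of 0.8569. Both lay in coding exons of genes with near copies, at unique shares of 0.64 and 0.825. X-linked pseudogenes had 0 of 178 in the conservative list and 1, F19G12.t1 at 53.96, in the optimal list.

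Some thresholded X peaks lay away from 5' ends. The noncoding gene C30E1.9 held 4 conservative peaks within 1131 bp. Their strongest had 36.04 in replicate 1, 43.09 in replicate 2 and 81.99 in the pooled list, and was in both replicate lists. Another had a pooled signal value of only 2.218 and overlapped the same replicate peaks, at 21.72 and 38.73, as its neighbour of 63.77 in the pooled list. It passed the IDR value at 2.25. The intergenic peaks nearest the F-box gene fbxa-190 (147.5, with 47.1 and 94.91) and Y102A11A.11 (129, with 49 and 70.53) were also in both replicate lists. They had unique shares of 0.145 and 0.12. Y60A9.3 stood nearest an intergenic peak with 44.03, 34.5 and 79.88 and a unique share of 0.

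Seen by position in genes, conservative X peaks were in noncoding exons in 21 of 54 cases (38.9%), against 10.9% of autosomal ones. Coding exons held 5 of the 54 (9.26%, against 18.7%) and introns 4 (7.41%, against 14.2%). Exons of tRNA genes count as noncoding exons here. Over all ranked peaks, noncoding exons made up 4.87% on X and 3.97% on the autosomes, and introns 27.4% and 30.1%. Intergenic summits made up 34.2% of ranked peaks on X and 26.8% on the autosomes, and coding exons 28.8% and 34.5%. Summits within 500 bp of any gene 5' end made up 28.4% of ranked X peaks (27.7 to 29.1), 30.1% of autosomal ones (29.7 to 30.4) and 29.8% of all. The stretches within 500 bp of a 5' end covered 26.5% of X and 30.9% of the autosomes. With protein-coding 5' ends only, the shares of summits were 15.6% and 20.7%, and those of bases 15.01% and 19.6%. The autosomes differed among themselves. For any gene, the share of summits was 25.5% on I and III, below X, and 29.55% on II, 32.25% on V and 36.5% on IV. Bases near a 5' end made up 23.55% of I and 23.6% of III, also below X, and 43.9% of IV. With protein-coding 5' ends only, every autosome was above X in its share of summits, from 19.01% on III to 22.6% on V. Whether the density of 5' ends accounts for these shares was not tested.

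Among conservative peaks, 29 of 54 on X were promoter-proximal (53.7%, 40.6 to 66.3), against 299 of 513 on the autosomes (58.3%, 53.97 to 62.5). The difference turned round in the optimal list, with 61.5% on X and 57.8% on the autosomes, and with a window of 250 bp. Near protein-coding 5' ends, X had 9 of 54 (16.7%) and the autosomes 217 of 513 (42.3%).

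Few conservative X peaks were also in the replicates' own thresholded lists. Of the 54, 7 were in both lists (13.0%, Wilson interval 6.42 to 24.4), 11 in 1 list (20.4%, 11.8 to 32.9) and 36 in neither (66.7%, 53.4 to 77.8). The autosomal shares were 21.6% (18.3 to 25.4), 29.0% (25.3 to 33.1) and 49.3% (45.0 to 53.6), and each interval overlaps that of X. The 7 peaks were those at his-24, hil-3, F22F1.t7, fbxa-190, Y102A11A.11, F15G9.8 and C30E1.9. The conservative X peaks were weaker at the upper end: the upper quartile of signal value was 67.9 on X and 83.4 on the autosomes, and 48 of the 54 had less than 100. Their median was 59.97, against 65.5 on the autosomes.

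**Figure D4:**
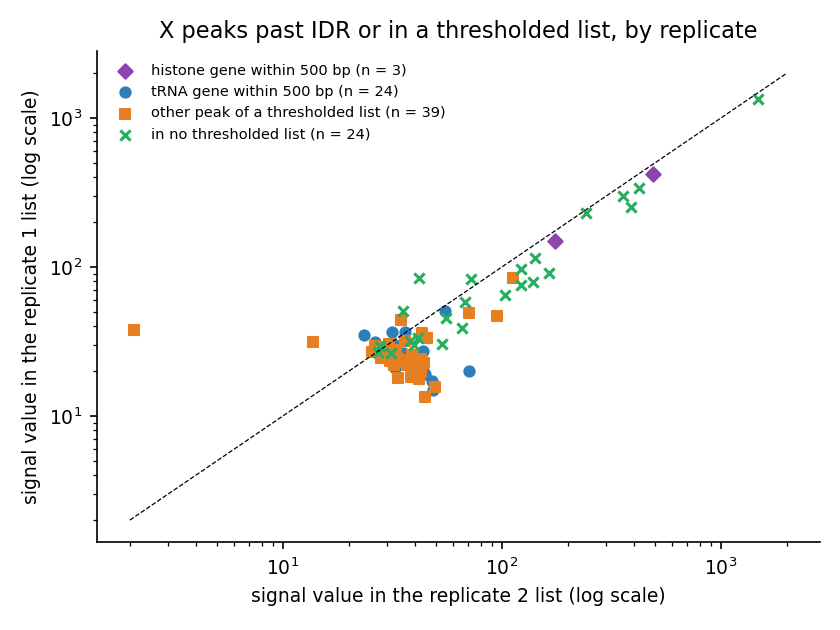
Signal values of X peaks that passed the IDR value or were in a thresholded list, in the replicate 1 list (vertical axis) and the replicate 2 list (horizontal axis), both on log scales with a dashed line of equal values. Colours give the class of the peak. The peaks at his-24 (422.5 and 490) and at Y7A5A.11 (1348 and 1477) stand at the top, and tRNA peaks lie in the dense lower cloud.

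Most of the strongest X signals were absent from the thresholded lists and lay in repeated sequence. On X, 25 of the 79 passing peaks overlapped no thresholded list (31.6%), against 104 of 617 on the autosomes (16.9%). All 25 had a share of unique 31-base words under 0.5, with a median of 0.135, against 0.805 in the passing X peaks that were kept. On the autosomes the medians were 0.081 and 1. The replicates' own ranked lists gave 19 of 33 passing X peaks absent from the thresholded list of replicate 1 (57.6%, against 26.97% on the autosomes) and 21 of 43 for replicate 2 (48.8%, against 23.1%). Of the 11 X peaks among the first 50 ranks, 9 overlapped no thresholded list, as did 23 of 39 autosomal ones. Whether these values come from binding or from reads that fit many places was not tested.

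These repeats fell into few families. By shared 12-base words, 13 of the 25 absent peaks formed 1 family, the one shown above for elk-2, fbxa-221 and Y64H9A.1, with pooled signal values between 44.29 and 466.4. In 22 of the 25 peaks the sequence matched itself at 80% or more of bases after a shift of 20 to 108 bp. In 16 of the 25 the 31 bases at the summit had no copy on an autosome. In some of these 16, such as the peaks nearest R57.2, Y47C4A.t2 and C04B4.6, those bases had only 1 copy in the genome. The 16 are thus not all repeats confined to X. Except for 1 peak in a coding exon of H03A11.2, all 25 were intergenic. This was not particular to X, since 94 of the 104 absent autosomal peaks were intergenic too (90.4%). Over all ranked peaks the intergenic shares were 34.2% on X and 26.8% on the autosomes.

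The strongest X peak of all, nearest Y7A5A.11 (X:15810958-15811184), had 1348 in replicate 1, 1477 in replicate 2 and 2701 in the pooled list, at rank 4. Its summit stretch of 31 bases occurred 11 times on X and 0 times elsewhere. Another peak of its family, less than 3 kb away, had 339.3, 421 and 712.5. The peaks nearest R57.2 (300.3, 356.1 and 642.9) and Y102F5A.1 (252.3, 388.1 and 623.6) ranked 14 and 15. The R57.2 peak showed no tandem match above 37.7% and its summit stretch was unique. Next came elk-2 (228.5, 242.5 and 466.4), fbxa-221 (115.7, 140.8 and 254.5) and Y64H9A.1 (90.57, 164.7 and 250.2). Y70D2A.5 had 97.12, 122.3 and 228.6, and Y70D2A.6, nearby, had 75.24, 122.1 and 194.3. B0403.6 had 154.4 in replicate 2, 215 in the pooled list and no overlapping peak in replicate 1. In each of these peaks with both values, replicate 2 was higher.

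Ranked X peaks were spread evenly along the chromosome. X was divided into 3 equal sections, and the middle one held 32.1% of them (Wilson interval 31.4 to 32.8), against 33.7% in the middle sections of the autosomes. Divided into 10 equal segments, X had between 9.14% and 10.5% of its ranked peaks in each. Their median signal value was 18.4, 18.1 and 18.2 in the first, middle and last section. Promoter-proximal summits were fewest in segments 1 and 10, at 21.2% and 22.3%, and reached 33.0% in segments 4 and 5.

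The conservative X peaks were less even. The last section of X held 27 of the 54 (50%, 37.1 to 62.9) and the middle section 14 (25.9%, 16.1 to 38.9), against 32.2% and 41.5% of the autosomal ones. Some of these 27 stood close together, with 4 in C30E1.9 and 2 each at his-24, T04C10.8 and Y60A9.3. The intervals count each peak separately, although such neighbours may not be independent. Segment 9 of X alone held 12, among them the peaks at his-24 and those near T04C10.8, nspc-17 and Y60A9.3. Protein-coding genes numbered 283 in that segment and 327 in segment 7, which held 3 conservative peaks. The tRNA genes of X were most numerous in segments 5 and 8, at 54 and 53, each with 6 conservative peaks.

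**Figure D5:**
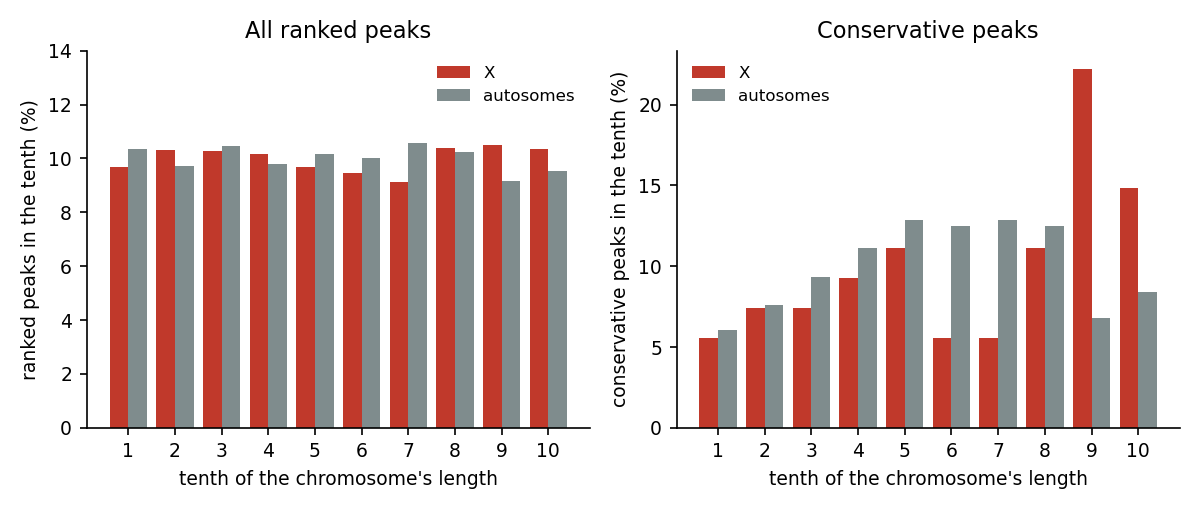
Share of ranked peaks (left) and of conservative peaks (right) in each of 10 equal segments of the chromosome's length (horizontal axis), in %, X left of the pooled autosomes. Ranked peaks on X lie between 9.14% and 10.5% a segment, while segment 9 holds 22.2% of the conservative X peaks.

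The 101 bases around each summit were searched for 9 words on both strands. GGTTCGA, a tRNA word, was found at 10 of the 54 conservative X peaks (18.5%, Wilson interval 10.4 to 30.8), all of them tRNA peaks, against 4.29% of conservative autosomal peaks. Among all ranked peaks it was at 1.11% on X and 0.991% on the autosomes. GGGACAC was at 6 of the 54 (11.1%, against 2.92%), namely his-24, hil-3, F22F1.t7, F20B6.9, nspc-17 and a peak in epn-1. At ranked peaks it was at 0.594% on X and 0.588% on the autosomes. GCGCAGG was at 3 of the 54 (5.56%, 1.91 to 15.1, against 0.975%, 0.417 to 2.26) and CGTCCG, the core of the site of human HINFP, at 2 (3.70%, 1.02 to 12.5, against 2.14%, 1.20 to 3.798). For both words the intervals overlap. At ranked peaks GCGCAGG was at 0.350% on X and 0.313% on the autosomes, and CGTCCG at 1.50% and 1.485%. The 2 peaks with CGTCCG were the weaker peak inside his-24, near M163.16, and the tRNA peak at ZK678.t1. The strong peaks upstream of his-24 and hil-3 lacked CGTCCG in the window.

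The other words were at few conservative X peaks. GAGAGA was at 5 of the 54 (9.26%, against 10.1%), CGCGCGC at 2 (3.70%, against 5.26%), CACGTG at 1 (1.85%, against 3.12%) and the GATA word TGATAA at 1 (1.85%, against 4.09%). At ranked peaks CACGTG was at 1.63% on X (1.44 to 1.83) and at 2.33% on the autosomes (2.22 to 2.44). TGATAA, the site of intestinal GATA factors, was at 8.30% on X and 7.70% on the autosomes. GAGAGA was at 6.25% of ranked X peaks and 6.59% of ranked autosomal peaks, and CGCGCGC at 0.5065% and 0.603%. None of the 9 words was found at any of the 25 absent X peaks. For each word the Wilson interval of 0 of 25 runs from 0 to 13.3%, which holds its share at ranked X peaks. Of these 25 peaks, 13 belong to 1 repeat family and are not separate sequences. The conservative X windows had a median GC content of 50.5%, against 45.5% on the autosomes.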

How the data were processed

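The ChIP-seq peaks came as 8 lists on build ce11 (WBcel235), which the authors deposited for 2 biological replicates of 1 group. Per the file lists deposited with them, each was derived from filtered alignments of 1 replicate or of both, with another input. No source used here names the peak caller, its version or the depth. Column 7 of the deposited lists holds the signal value of the authors' peak caller, with no stated scaling. Column 10 of the deposited lists holds the summit as an offset in bases. Column 12 of the deposited ranked lists holds the −log10 of the global IDR. The 4 ranked lists hold 32 further columns without sample names, which were not used. The members, gene lists, words and tests were chosen with earlier results of these data known.

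Peaks on X were taken from the pooled ranked list and marked by overlap of at least 1 base with the thresholded lists, of which the conservative one is a subset of that list. Replicate values are those of the overlapping peak of each replicate's own ranked list. Genes came from Ensembl release 115 (46890 genes) and tRNA isotypes from RefSeq. A summit within 500 bp of a gene 5' end was promoter-proximal. A peak was named by the nearest 5' end within 500 bp, otherwise by the gene that contains the summit, otherwise by the nearest. The genes named were those of the 15 strongest X peaks of the conservative and optimal lists, up to 4 X members of each gene list with a thresholded peak, the 10 strongest X peaks outside the lists, and those in both replicate lists. Others are said to be chosen afterwards. Intervals are Wilson intervals at 95%, and no test was run, since 1 group and 1 chromosome give no replicates. Functions were tested on simulated data. Python 3.11.15, numpy 2.4.6, pandas 2.3.3 and matplotlib 3.10.9 were used.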

Additional observations from a re-analysis of the deposited data

How the results depend on the processing

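No paired analysis was possible because both samples belong to the only group. Settings were compared with the spread (SD) between the replicates' own lists, and 15 of 45 values stayed within it. That SD rests on 2 values for each result, which are themselves among the 45, so it is only a rough yardstick. The cause of the moves was not tested. With the optimal list, X had 8.25% of peaks, a promoter share 3.75 points above that of the autosomes (reversed) and 40.4% tRNA peaks. In unique sequence, X had 5.596% of conservative and 5.58% of passing peaks, a signal ratio of 0.982 and 33.3% in the middle section of X. A −log10 IDR of 3 gave 10.5%. The other pooled ranked list gave 10.5% of passing peaks and 31.8% in the middle section. Promoter-proximal peaks had a signal ratio of 0.997. With 250 bp, the promoter difference, X minus autosomes, was -0.136 points for ranked and 6.14 for conservative peaks (reversed). With 1000 bp it was -3.73 and -10.2, and with protein-coding 5' ends -5.17 and -25.6. The ratio of coding gene shares, chosen after seeing the data like the tRNA share, was 0.149 with 250 bp and 0.258 with 1000 bp. Without replicate 1 or 2, the X share was 6.70% to 8.09% of thresholded and 11.0% to 11.7% of passing peaks, the signal ratio 0.985 to 0.991, and the promoter difference -1.88 to -1.37 points for ranked and -14.95 to -10.5 for thresholded peaks. Noncoding genes took 57.1% to 80% of X promoter peaks, the middle section 31.8% to 32.2%, the coding ratio was 0.146 to 0.179 and the tRNA share 28.6% to 31.8%. Depth is unknown, so counts near 0 show only what these lists hold.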
